A study of Arabidopsis thaliana with 10 samples.

Results

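The 48 genes described here encode proteins of the cytosolic ribosome of Arabidopsis thaliana, the thale cress. They were listed by locus, and the values of all transcripts of a locus were added up, so that 84 transcripts gave 48 genes of the 32753 loci in the deposited table. Of these genes 27 encode proteins of the large subunit, 18 of the small subunit and 3 of the stalk, and 38 of them fall into 17 families of 2 or 3 paralogues. All 48 matched a gene of the reference annotation and all passed the filter on low values. RNA was sequenced from whole seedlings kept in the dark for 5 days on medium with 2 µM of a compound that the labels call PPZ. Wild-type seedlings of the accession Col-0 were mock-treated or given rapamycin at 100 nM. Those of a line named RiD-BRI1/BAK1, here RiD, were mock-treated, given rapamycin at 100 nM or given brassinolide at 100 nM. PPZ is thus shared by all 5 groups, each of which held 2 libraries numbered 1 and 2. The sources used here do not state what drives the transgenes of RiD, or whether RiD is 1 transformed clone.

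A ribosome holds a single copy of most of its proteins, so the cell makes the proteins of both subunits in step. In plants nearly every ribosomal protein is encoded by several paralogous genes, and these genes are strongly expressed in growing and dividing tissue. Brassinolide is a steroid hormone that the receptor kinase BRI1 and its partner BAK1 perceive. Rapamycin is a bacterial macrolide that joins the protein FKBP to the FRB domain of the kinase TOR, and TOR promotes ribosome production in eukaryotes. By its title, the study was about controlling receptor kinases of plant membranes with chemicals.

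Values are the authors' normalized counts, added up per locus. The libraries summed to between 23244655 and 26987555 normalized counts. Steps between low values put the depth at 18.4 to 19.9 M reads in libraries numbered 1 and at 29.2 to 33.9 M in those numbered 2. The ribosomal protein genes were lower in library 2 than in library 1 of every group, in 45 of 48 genes in Col-0 mock and in 40 after rapamycin, and in RiD in 47 with mock, 47 with rapamycin and 44 with brassinolide. The median log2 difference between the numbers lay between -0.22 in Col-0 rapamycin and -0.56 in RiD mock and RiD rapamycin, while the median over all tested loci lay between -0.01 and 0. What the number stands for is not given, and its part in the results was not tested beyond the values given for each number. Comparisons were therefore made within numbers, with the number as a term of the model. PORA, an enzyme of chlorophyll synthesis typical of dark-grown seedlings, was present in every library. It held 53457 and 46955 normalized counts in RiD mock, 24115 and 18014 in RiD rapamycin, 33335 and 33757 in RiD brassinolide, and 41947 to 51626 in Col-0. It was thus lowest in the groups in which the ribosomal protein genes were lowest, and its part in the results was not tested. Nothing in the sources ties the 2 libraries of any group to different plantings, so that p-values reach no further than these libraries. With the number in the model, they measure only the spread left after the shift between numbers is fitted.

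Per kilobase of transcript, the highest mean level over all libraries belonged to the S8-family gene AT5G20290, with 11610 normalized counts per kb. The S9-family gene AT5G15200, annotated as ribosomal protein S4, followed with 10675 and RPL3A with 9593. Both lowest genes were minor paralogues, RPSaB at 38.6 and RPL10B at 204 normalized counts per kb. The next 3 genes from below were the S9-family gene AT5G39850 at 298, the stalk gene AT2G40010 at 353 and RPL16A at 517.

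The promoters of ribosomal protein genes in plants are known for the telo-box, a repeat unit of plant telomeres, and for site II elements, which TCP factors bind. Windows of 250 bases before and 50 bases after each annotated gene start were read from TAIR10.1 for the 48 genes and for 22447 of the 23285 tested loci. AACCCTA, the core of the telo-box, was found on either strand in 24 of 48 windows (50.0%) and in 7.8% of all windows. TGGGCC or TGGGCT, the forms of site II searched, stood on either strand in 39 of 48 windows (81.2%) and in 24.2% of all. TGGGCCCA counts as a pair of overlapping matches. The G-box CACGTG, searched for contrast, was found in 4.17% of the 48 windows and in 8.64% of all. Among 159 other cytosolic ribosomal protein genes the telo-box core was found in 56.0% and site II in 75.5%. In the 250 bases before the start alone, 12 of 48 held the telo-box core and 34 held site II. A match is a string of letters and not a shown binding site.

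The next sequences are the 250 bases before the annotated start of 7 genes, from RefSeq TAIR10.1, 5′ to 3′ on the strand of the gene, with telo-box cores and site II elements in capitals. They show the gene with the highest level and 3 sets of paralogues that the results below turn on. The first is the S8-family gene AT5G20290 (chr5:6853107-6853356, minus strand). RPL10A (chr1:4887864-4888113, plus) and RPL10C (chr1:24838840-24839089, plus) follow, then RPL18 (chr3:1621105-1621354, plus) and its paralogue AT5G27850 (chr5:9872817-9873066, plus). The last are RPS6A (chr4:15347805-15348054, minus) and RPS6B (chr5:3260255-3260504, minus). The deposited table holds no coordinates, and the sources used here do not name its annotation release.
AT5G20290: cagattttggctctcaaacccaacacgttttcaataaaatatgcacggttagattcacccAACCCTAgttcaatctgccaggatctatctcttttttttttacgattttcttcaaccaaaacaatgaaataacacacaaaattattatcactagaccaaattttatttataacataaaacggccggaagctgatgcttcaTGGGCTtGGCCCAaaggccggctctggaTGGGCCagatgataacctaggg
RPL10A: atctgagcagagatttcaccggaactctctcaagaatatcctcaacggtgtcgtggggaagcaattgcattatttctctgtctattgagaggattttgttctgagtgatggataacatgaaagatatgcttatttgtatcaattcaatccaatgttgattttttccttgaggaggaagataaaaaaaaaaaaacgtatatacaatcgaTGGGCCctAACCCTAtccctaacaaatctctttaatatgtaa
RPL10C: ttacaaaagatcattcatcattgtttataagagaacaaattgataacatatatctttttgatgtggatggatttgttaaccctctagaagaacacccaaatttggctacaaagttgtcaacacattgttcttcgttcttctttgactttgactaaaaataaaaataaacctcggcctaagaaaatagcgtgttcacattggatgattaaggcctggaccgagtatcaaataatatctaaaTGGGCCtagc
RPL18: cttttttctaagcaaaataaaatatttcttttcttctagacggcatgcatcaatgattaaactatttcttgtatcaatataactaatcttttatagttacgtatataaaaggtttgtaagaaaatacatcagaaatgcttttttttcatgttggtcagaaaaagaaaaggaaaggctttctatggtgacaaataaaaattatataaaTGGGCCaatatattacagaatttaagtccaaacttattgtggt
AT5G27850: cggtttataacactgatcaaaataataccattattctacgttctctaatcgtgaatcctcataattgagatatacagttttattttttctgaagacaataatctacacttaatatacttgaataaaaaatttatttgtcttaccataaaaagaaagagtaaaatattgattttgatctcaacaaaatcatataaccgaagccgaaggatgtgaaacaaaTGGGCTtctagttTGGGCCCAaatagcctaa
RPS6A: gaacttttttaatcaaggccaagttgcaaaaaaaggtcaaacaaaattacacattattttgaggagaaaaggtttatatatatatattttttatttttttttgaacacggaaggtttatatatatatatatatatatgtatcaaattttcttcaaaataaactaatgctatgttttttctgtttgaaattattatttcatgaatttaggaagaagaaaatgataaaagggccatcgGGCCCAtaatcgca
RPS6B: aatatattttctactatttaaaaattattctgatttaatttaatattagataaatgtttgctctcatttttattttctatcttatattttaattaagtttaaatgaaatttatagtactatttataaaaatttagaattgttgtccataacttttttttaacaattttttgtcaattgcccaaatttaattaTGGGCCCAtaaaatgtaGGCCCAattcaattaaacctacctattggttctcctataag

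All 7 printed stretches held site II, with 3 matches each in AT5G20290, AT5G27850 and RPS6B and 1 in the others. The telo-box core stood in the stretches of AT5G20290 and RPL10A. With the 50 bases after the start, RPL10C and RPS6B held a telo-box core as well. Of the 4 genes that did not pass the test in RiD rapamycin, 3 held site II in these 250 bases and 0 held the telo-box core, against 31 and 12 of the 44 that fell. With the 50 bases after the start these counts were 3 and 1 of the 4, against 36 and 23 of the 44. The difference between these sets was not tested, and 4 genes are too few to tell them apart.

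The summed level of the genes was lowest in RiD rapamycin. Together they made up 1.39% and 1.13% of Col-0 mock libraries 1 and 2, and 1.34% and 1.23% of Col-0 rapamycin. They made up 1.29% and 0.937% of RiD mock, 0.715% and 0.507% of RiD rapamycin, and 0.855% and 0.719% of RiD brassinolide. Both RiD rapamycin libraries and both RiD brassinolide libraries lay below all 6 others. Within numbers, the sum in RiD rapamycin was 60.2% of RiD mock in number 1 and 60.0% in number 2, which is the closest match between numbers of the 6 comparisons of groups. RiD brassinolide stood at 67.4% and 77.8% of RiD mock. Col-0 rapamycin stood at 96.9% and 107% of Col-0 mock, on either side of no change. In bulk RNA, fewer cells of a type and less RNA per cell cannot be told apart.

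The sums of both subunits were lower by like shares. Per kilobase, the large subunit genes summed to 60.8% of RiD mock in RiD rapamycin in number 1 and to 60.4% in number 2, and the small subunit genes to 60.7% and 60.5%. The ratio of large to small subunit sums per kilobase was 1.25 ± 0.0227 (SD, n = 2) in RiD mock and 1.25 ± 0.0214 in RiD rapamycin. It was 1.28 ± 0.00636 in RiD brassinolide, and in Col-0 it was 1.28 ± 0.0215 with mock and 1.26 ± 0.0275 with rapamycin. The ratio thus differed between groups by little more than between the libraries of a group. The stalk sum was lower still, at 52.4% and 51.4% of RiD mock. By gene, the median log2 change in RiD rapamycin against RiD mock was -0.88 in the large subunit and -0.75 in the small subunit. That is 54.5% and 59.5% of RiD mock. These sums run over a chosen list and carry no test.

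**Figure D1:**
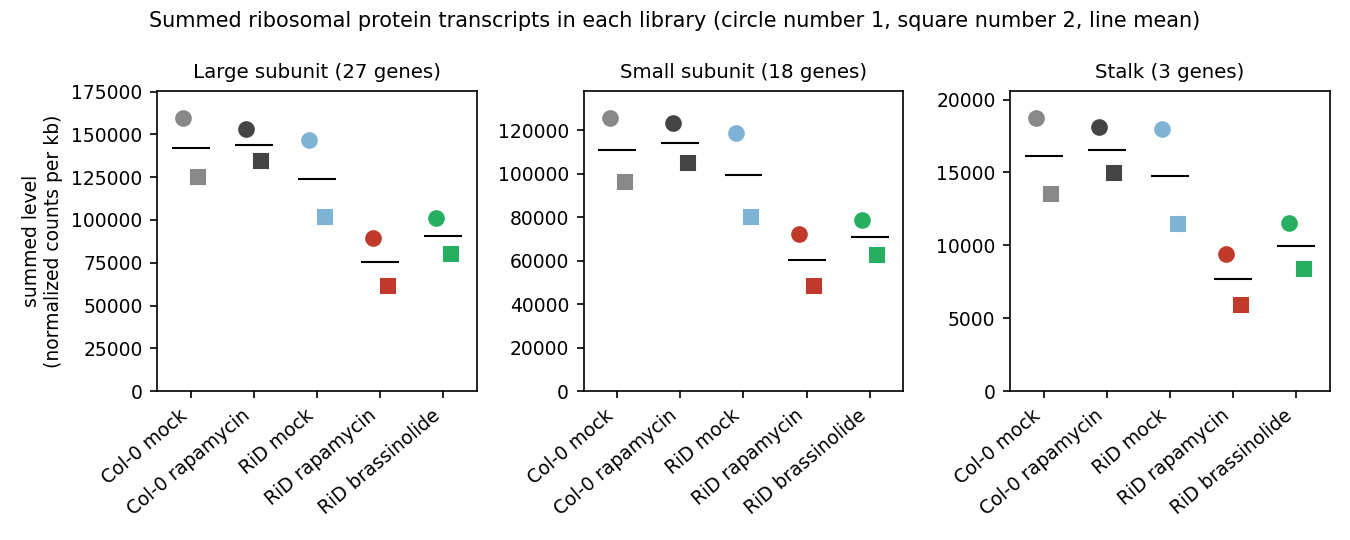
Summed levels of the genes of the large subunit, small subunit and stalk in each library, in normalized counts per kb of transcript on axes that start at 0. Circles are libraries numbered 1, squares those numbered 2, and lines the mean of each group. In all 3 panels both RiD rapamycin libraries lie below the RiD mock library of the same number, and each square lies below the circle of its group.

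Rapamycin in RiD, against RiD mock, lowered 44 of 48 genes and raised none. Among them were all 18 genes of the small subunit, 24 of 27 of the large subunit and 2 of 3 of the stalk. A gene is called here, and said to have risen or fallen, where limma's adjusted p was under 0.05 over all 23285 loci. Over all of these, 24.1% were called lower in this comparison. The median log2 change of the 48 genes was -0.82, or 56.5% of RiD mock, and the median of all tested loci was -0.03. Within numbers the median was -0.82 in number 1 and -0.83 in number 2, with 46 and 47 of 48 genes below RiD mock. Without the number in the model 22 of the 48 were called lower, all among the 44, against 9.72% of all loci. In 38 of 48 genes both RiD rapamycin libraries lay below both RiD mock libraries, as in 28.5% of all loci. Scaling all libraries to the same total moved the median of all loci to -0.16 and that of the 48 genes to -0.96, with 45 called. The called loci then split into 4454 higher and 7386 lower, in place of 5604 and 5611.

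Of the large subunit, RPL3A (AT1G43170, chr1:16266553-16268945 of TAIR10.1) encodes a protein that reaches towards the peptidyl transferase centre. It held 22209 and 15280 normalized counts in RiD mock, 14904 and 10118 in RiD rapamycin, and 15260 and 11169 in RiD brassinolide. In Col-0 it held 22708 and 16796 with mock and 22140 and 15547 with rapamycin. Both RiD rapamycin libraries lay below both RiD mock libraries, and the log2 change was -0.59 ± 0.0788 (SE, n = 2 per group, limma adjusted p = 2.4e-05). The call was lost without the number (adjusted p = 0.216).

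The largest fall in the large subunit was that of AT5G02870 (chr5:657675-659800), 1 of 2 L4-family genes, whose product reaches into the exit tunnel. It held 7636 and 4644 normalized counts in RiD mock, 3361 and 2141 in RiD rapamycin, and 4920 and 3565 in RiD brassinolide. In Col-0 the values were 8054 and 5767 with mock and 7697 and 5223 with rapamycin. RiD rapamycin stood at 45.1% of RiD mock, a log2 change of -1.15 with a 95% interval from -1.34 to -0.96 (limma adjusted p = 8.73e-08, and 0.0472 without the number). RPL24A (-1.10), the L13a-family gene AT3G07110 (-1.09), RPL5A (-1.07) and RPL23aA (-1.05) fell about as much on the log2 scale. RPL5A and RPL5B, whose product carries the 5S rRNA into the large subunit, both fell, with -1.07 and -0.97.

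RPL10C (AT1G66580, chr1:24839090-24840806), also named as a senescence associated gene in the reference, had the smallest estimate. Its protein family joins the large subunit late in assembly. It held 9916 and 5976 normalized counts in RiD mock and 9918 and 5771 in RiD rapamycin. It held 7701 and 4746 in RiD brassinolide, 9952 and 5741 in Col-0 mock and 9906 and 6411 in Col-0 rapamycin. Within each number, RiD brassinolide lay below the other 4 groups, while RiD rapamycin lay next to RiD mock. The log2 change was -0.03, with a 95% interval from -0.20 to 0.15 (limma adjusted p = 0.828). The median change of the 48 genes lies outside this interval. RPL10C was picked for its small change in these same libraries, however, and the interval makes no allowance for that choice. The estimate ranged from -0.18 to 0.01 over 19 alternatives and was called under none of them. The estimate was just above 0 without RiD rapamycin library 2, at 0.01.

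In the small subunit, the S8-family gene AT5G20290 (chr5:6851341-6853106) had the highest level of all. It held 16599 and 11066 normalized counts in RiD mock, 9586 and 6738 in RiD rapamycin, and 11415 and 8749 in RiD brassinolide. The values in Col-0 were 18271 and 14401 with mock and 17645 and 15216 with rapamycin. The 2 RiD treatments lay below mock in each number, with a log2 change of -0.75 ± 0.094 for rapamycin (SE, limma adjusted p = 1.13e-05, and 0.0812 without the number).

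Both genes of RPS6, the protein that S6 kinase phosphorylates downstream of TOR, fell. RPS6A (AT4G31700, chr4:15345979-15347804) held 6416 and 4177 normalized counts in RiD mock, 2877 and 1949 in RiD rapamycin, and 3893 and 3162 in RiD brassinolide. Values in Col-0 were 7690 and 5674 with mock and 6764 and 5693 with rapamycin. RPS6B (AT5G10360, chr5:3258404-3260254) held 12109 and 8468 in RiD mock, 7392 and 5366 in RiD rapamycin, and 7692 and 6357 in RiD brassinolide. Its Col-0 values were 12812 and 10556 with mock and 12981 and 11343 with rapamycin. In both genes the RiD rapamycin libraries lay below all mock libraries, and RPS6A fell further, to 45.7% of RiD mock against 62.2% for RPS6B. Their 95% intervals on the log2 scale, from -1.34 to -0.91 and from -0.88 to -0.49, do not overlap. The limma adjusted p was 3.43e-07 for RPS6A and 2.57e-05 for RPS6B with the number, and 0.0234 and 0.0762 without it.

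The largest estimated fall of all 48 genes was that of RPSaB (AT3G04770, chr3:1309273-1311129), the minor of 2 paralogues of the small subunit protein SA. Its level was low throughout. It held 64.5 and 69.6 normalized counts in RiD mock, 18.1 and 32.9 in RiD rapamycin, and 43.5 and 47.1 in RiD brassinolide, with 49.0 and 65.2 in Col-0 mock and 84.7 and 63.8 in Col-0 rapamycin. The RiD rapamycin libraries were the lowest of the 10, with a log2 change of -1.42 and an interval from -2.03 to -0.80 (limma adjusted p = 0.00089). RPSaA (AT1G72370, chr1:27242845-27244931), which made up over 99% of the level of the pair in every library, held 12261 and 8685 in RiD mock and 6465 and 4484 in RiD rapamycin. It held 7924 and 6251 in RiD brassinolide, 13089 and 10356 in Col-0 mock and 12531 and 10623 in Col-0 rapamycin. RPSaA fell to 52.2% of RiD mock.

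RPS18C (AT4G09800, chr4:6173712-6175200) changed least in the small subunit. It held 6613 and 4030 normalized counts in RiD mock, 5524 and 3291 in RiD rapamycin, and 4888 and 3177 in RiD brassinolide. In Col-0 it held 6351 and 4103 with mock and 6642 and 5139 with rapamycin. The RiD rapamycin and mock libraries overlap. The log2 change was -0.28, with a limma adjusted p of 0.0293 that moved to 0.658 without the number. The call was also lost without either Col-0 mock library (0.0526 and 0.0517), without RiD mock library 1 (0.209), without RiD rapamycin library 2 (0.256) and without trend and robust moderation (0.110). Its paralogue RPS18A, known as POINTED FIRST LEAVES for the leaf shape of its mutant, fell by 0.73 on the log2 scale.

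The stalk binds translation factors to the large subunit. Its genes AT3G09200 (chr3:2823088-2825241) and AT2G40010 (chr2:16708379-16710772), annotated as a ribosomal protein L10 family apart from RPL10A to RPL10C and taken here as the P0 pair, parted. AT3G09200 held 13586 and 9915 normalized counts in RiD mock, 6164 and 4613 in RiD rapamycin, and 8247 and 7085 in RiD brassinolide. The values in Col-0 were 13765 and 11795 with mock and 13568 and 12427 with rapamycin. It fell to 46.0% of RiD mock with rapamycin (limma adjusted p = 1.88e-07, and 0.00743 without the number). AT2G40010 was far lower, at 552 and 445 in RiD mock, 601 and 381 in RiD rapamycin and 632 and 445 in RiD brassinolide. Values in Col-0 were 515 and 455 with mock and 617 and 569 with rapamycin. Its RiD groups overlap, and the log2 change of -0.05 had an interval from -0.33 to 0.23. Without RiD rapamycin library 2 its estimate was 0.14. AT1G01100, annotated in the 60S acidic ribosomal protein family, fell to 57.1% of RiD mock.

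**Figure D2:**
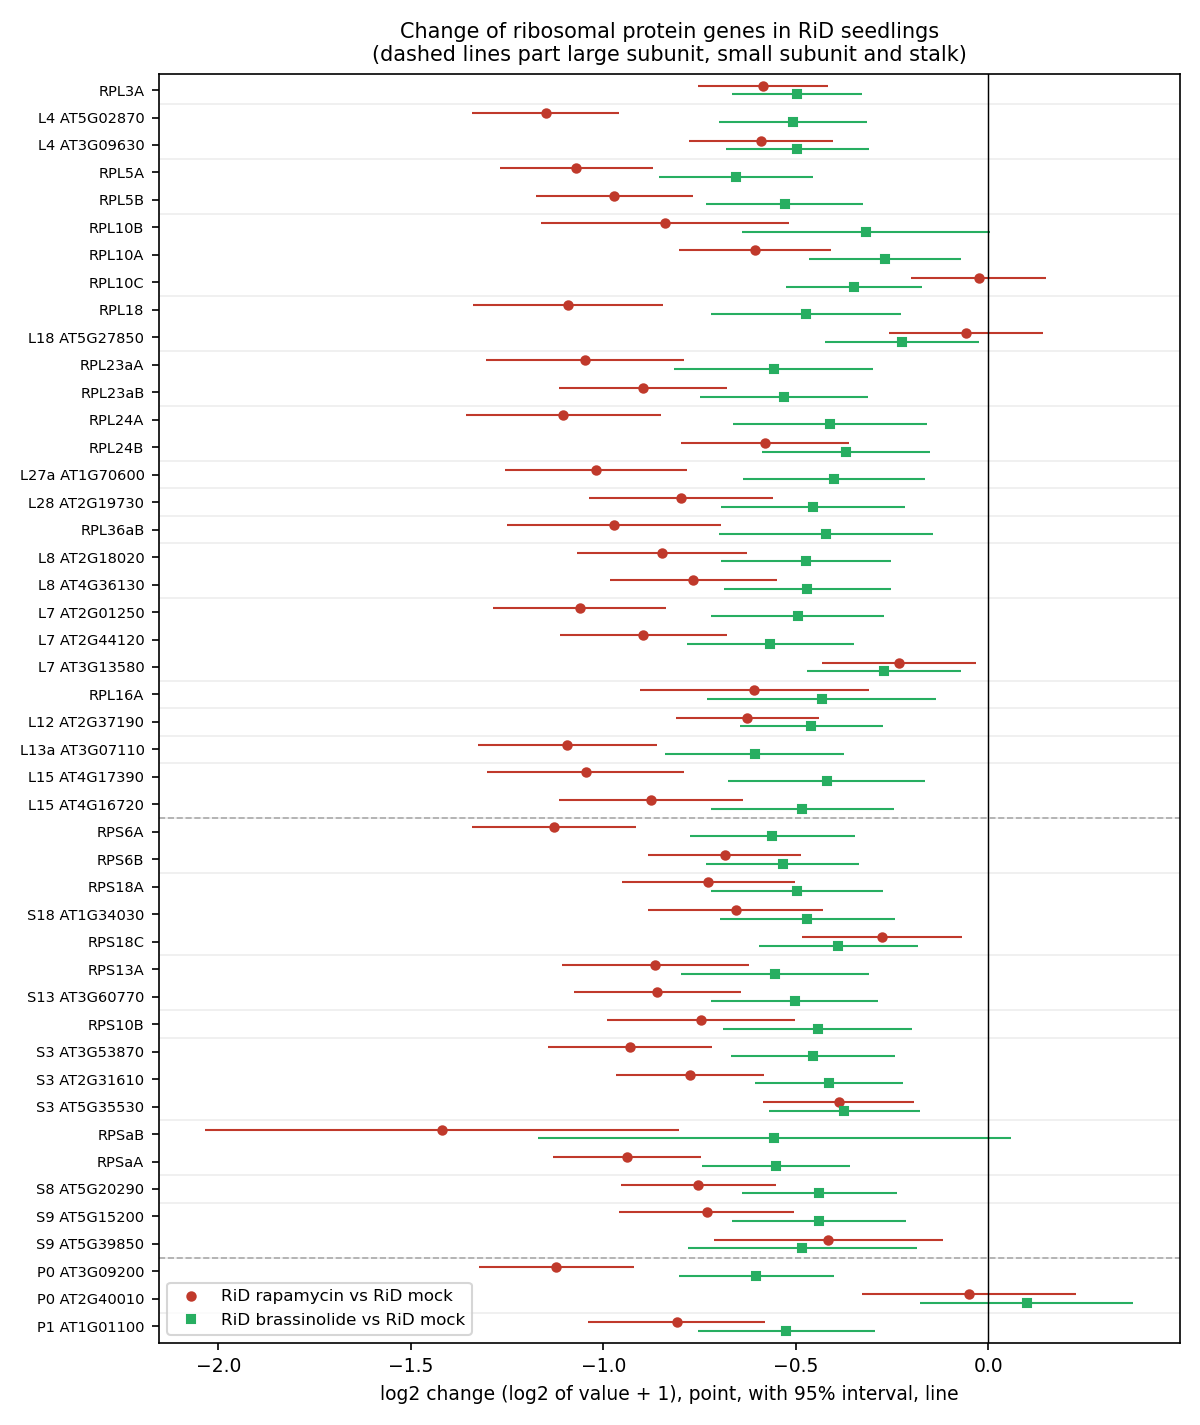
Log2 change of single ribosomal protein genes against RiD mock, for RiD rapamycin (circles) and RiD brassinolide (squares), with 95% intervals from the model with the replicate number. Dashed lines part large subunit, small subunit and stalk, and paralogues stand together. Most circles lie left of the squares of the same gene. The circles of RPL10C, the L18-family gene AT5G27850 and the P0 gene AT2G40010 lie next to 0.

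Fitted changes lay apart between paralogues in some families and close together in others. Among 17 families with 2 or 3 listed genes, the distance between the lowest and highest log2 change in RiD rapamycin against RiD mock was over 0.5 in 7 families and under 0.25 in 6. In 9 families the 95% intervals of these genes do not overlap, and in 16 the distance kept its direction in both numbers. The lowest and highest gene of each family were picked from these same libraries, which favours both counts. No test of the difference between paralogues was run, and the families were ranked on these values. Coding sequences of paralogues were 79.4% to 92.7% identical, with unbroken identical runs of 20 to 98 bases. How the counting shared out reads that match several paralogues is not given, so levels of paralogues are uncertain to that extent.

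The share of a family moved most in L18, whose proteins lie on the surface of the large subunit. RPL18 (AT3G05590, chr3:1621355-1623052) held 8070 and 4912 normalized counts in RiD mock, 3884 and 2247 in RiD rapamycin, and 5230 and 3930 in RiD brassinolide. In Col-0 it held 8819 and 6411 with mock and 8226 and 6905 with rapamycin. AT5G27850 (chr5:9873067-9874973) held 9862 and 5632 in RiD mock, 9024 and 5685 in RiD rapamycin and 7994 and 5088 in RiD brassinolide. Its Col-0 values were 11082 and 6708 with mock and 10145 and 7469 with rapamycin. RPL18 fell to 46.9% of RiD mock, while AT5G27850 stood at 96.1%, with an interval of its log2 change from -0.26 to 0.14. Without RiD mock library 1 that estimate was 0.04. Per kilobase, AT5G27850 made up 47.6% and 46.0% of the pair in RiD mock and 63.3% and 65.3% in RiD rapamycin, a move of 17.5 points. In RiD brassinolide its share was 53.2% and 49.0%, and in the 4 Col-0 libraries 43.7% to 48.3%. RPL18 lost its call without the number (limma adjusted p = 0.0509).

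The L7 family, annotated as ribosomal protein L30/L7, came next. AT2G01250 (chr2:132578-134455) held 7758 and 4376 normalized counts in RiD mock, 3569 and 2183 in RiD rapamycin, and 4879 and 3501 in RiD brassinolide. The values in Col-0 were 8510 and 5770 with mock and 7904 and 6151 with rapamycin. AT2G44120 (chr2:18248830-18251156) held 4101 and 3033, 2244 and 1598, and 2620 and 2163 in the same RiD groups, with 4556 and 3595 in Col-0 mock and 4317 and 4104 in Col-0 rapamycin. These genes fell to 47.9% and 53.7% of RiD mock, and without the number the first lost its call (limma adjusted p = 0.0706). AT3G13580 (chr3:4433047-4435305) held 3619 and 2448 in RiD mock, 3239 and 1984 in RiD rapamycin and 2999 and 2027 in RiD brassinolide. Its Col-0 values were 3878 and 2476 with mock and 3906 and 2993 with rapamycin. The RiD groups overlap, and its log2 change of -0.23 did not pass the test (limma adjusted p = 0.0536). It was called under 5 of 19 alternatives, with -0.37 on the log2 scale after scaling to the same total. Its share of the family level per kilobase was 27.1% and 29.0% in RiD mock and 40.7% and 39.4% in RiD rapamycin.

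Other families parted in the same manner. RPL10C made up 43.7% and 42.0% of its family in RiD mock and 54.7% and 51.2% in RiD rapamycin, while RPL10A (-0.61 on the log2 scale) and RPL10B (-0.84) fell. The L4-family gene AT3G09630 fell by 0.59 on the log2 scale and its paralogue AT5G02870 by 1.15. RPL24B, which takes part in translation reinitiation after upstream reading frames, fell by 0.58 and RPL24A by 1.10. Among the S3-family genes AT5G35530 fell by 0.39 and AT3G53870 by 0.93. In the P0 pair, AT2G40010 moved from 3.86% and 4.24% of the level per kilobase in RiD mock to 8.79% and 7.54% in RiD rapamycin.

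The S13 family moved as one. RPS13A (AT4G00100, chr4:36916-38384), whose mutant is known as POINTED FIRST LEAF 2, held 7935 and 4573 normalized counts in RiD mock, 4290 and 2548 in RiD rapamycin, and 4768 and 3528 in RiD brassinolide. Values in Col-0 were 8549 and 5789 with mock and 8158 and 6735 with rapamycin. AT3G60770 (chr3:22460189-22461779) held 4939 and 3618 in RiD mock, 2710 and 2001 in RiD rapamycin and 3179 and 2797 in RiD brassinolide. Its Col-0 values were 5209 and 4438 with mock and 5055 and 4811 with rapamycin. The log2 changes of these genes were -0.87 and -0.86, and without the number RPS13A lost its call (limma adjusted p = 0.121) while AT3G60770 kept it (0.0223). The share of AT3G60770 moved by 0.0862 points between RiD mock and RiD rapamycin, and within a group it differed more, with 39.8% and 45.7% in RiD mock. Without 1 of the 4 libraries the move lay between -2.85 and 3.02 points, since the numbers then no longer balance. The share of RPSaA moved by 0.139 points, and by -0.07 to 0.35 points with 1 library left out. RPL5, L8, L15 and L23a genes also moved together, with distances under 0.25 on the log2 scale.

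**Figure D3:**
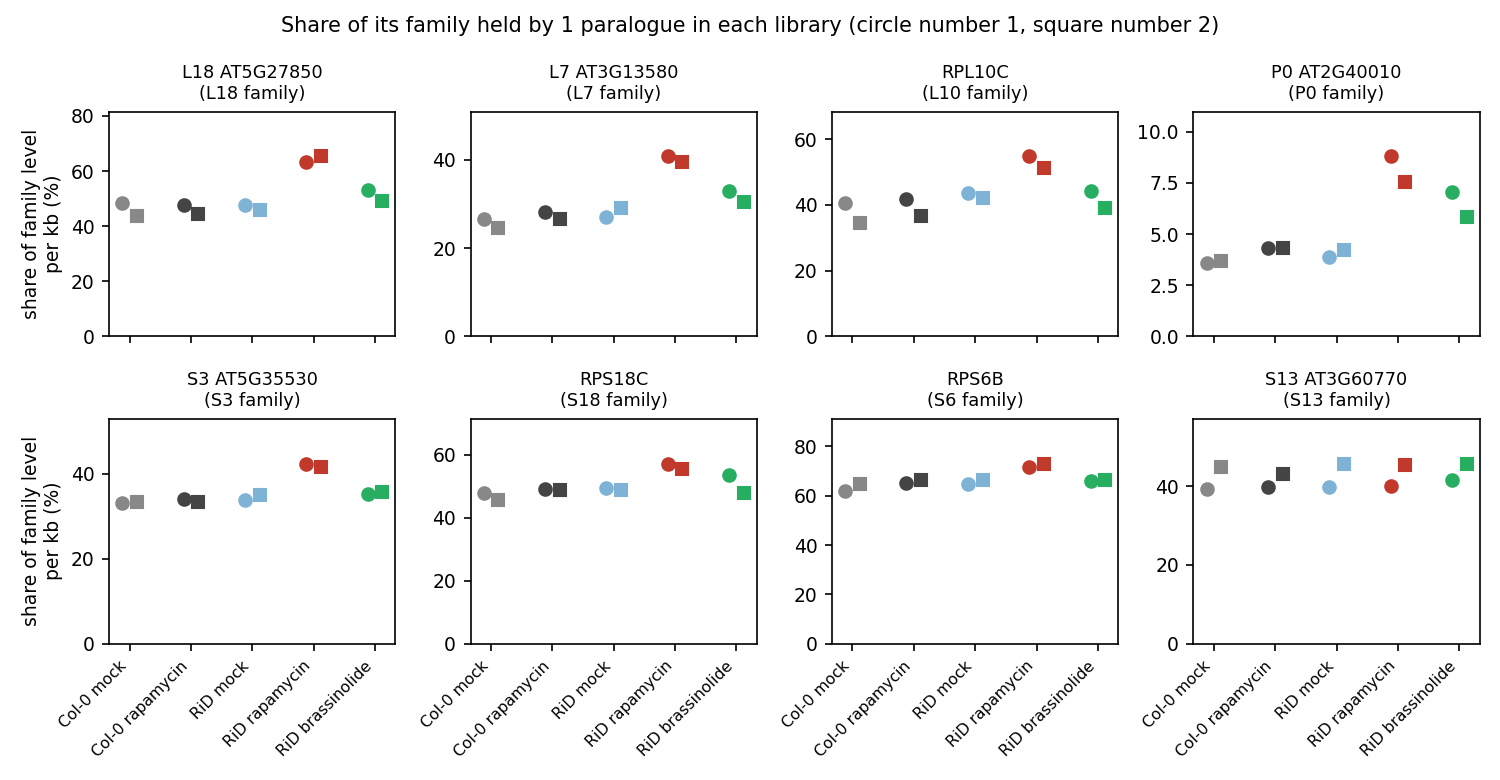
Share of the level of its family, per kb of transcript, held by 1 paralogue in each library, with circles for libraries numbered 1 and squares for those numbered 2. The paralogues shown are ones whose share rose with rapamycin in RiD, and 1 of the S13 family, so that the rise follows from the choice. In 7 panels both RiD rapamycin libraries have the highest share of the 10 libraries. In the S13 panel the share follows the number and not the group.

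Brassinolide in RiD, against RiD mock, also lowered 44 of 48 genes and raised none, by a smaller median of -0.47 on the log2 scale, or 72.1% of RiD mock. Of all loci 12.8% were called lower. The fall was less even between numbers than with rapamycin, with medians of -0.60 in number 1 and -0.34 in number 2. RPL5A fell most, to 63.5% of RiD mock (log2 change -0.66, limma adjusted p = 0.000114). AT3G09200 fell to 65.9% and RPS6A and RPS6B to 67.8% and 69.1%. RPL10C, which did not pass the test with rapamycin, fell to 78.5% (limma adjusted p = 0.00558), and AT3G13580 to 82.8% (0.0432). The call of RPL10C was lost without the number (limma adjusted p = 0.737). It was also lost without RiD brassinolide library 1, where the log2 change was -0.33. The call of AT3G13580 held under 6 of 19 alternatives, with adjusted p from 0.0119 to 0.753, and was lost without any 1 of the libraries of Col-0 mock and of the RiD groups. The 4 genes that were not called were RPSaB, RPL10B, AT5G27850 and AT2G40010, and the last lay above mock, at 107%. Large and small subunit genes had medians of -0.47 and -0.48. Without the number in the model 1 gene was called, RPL5A, against 2.13% of all loci. Without RiD mock library 1 the count was 18 and without RiD brassinolide library 1 it was 20. It was 17 without a mean-variance trend and robust moderation, where 1733 of 23285 loci were called lower. Fewer of all loci were called lower in each of these fits too.

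Rapamycin and brassinolide share their RiD mock libraries, so the direct comparison of both treatments is given instead of the overlap of their calls. RiD rapamycin was lower than RiD brassinolide in 26 of 48 genes, against 9.09% of all loci, and higher in 1, against 10.9%. The median log2 difference was -0.33, with -0.21 in number 1 and -0.46 in number 2. The lower genes were 18 of the large subunit, 7 of the small subunit and 1 of the stalk. RPL24A stood at 61.9% of RiD brassinolide, AT5G02870 at 64.1%, RPL18 at 65.2% and RPS6A at 67.5%. RPL3A did not pass the test, with a log2 difference of -0.09 and an interval from -0.26 to 0.08. The gene that was higher with rapamycin was RPL10C, by 0.32 on the log2 scale (limma adjusted p = 0.0123). That call was lost when libraries were scaled to the same total (0.21 on the log2 scale, adjusted p = 0.0949) and held under 11 of 19 alternatives. No gene was called without the number, against 1.53% of all loci called lower. An unadjusted p under 0.05 was found for 8 of 48 genes, near the 15.5% of all loci. The count was 7 without RiD rapamycin library 2, 8 without RiD brassinolide library 2, 15 without RiD brassinolide library 1, and 4 without trend and robust moderation. Fewer of all loci were called lower in each of these fits too, with 1238 of 23285 without trend and robust moderation. Scaling to the same total called 35 lower and split the called loci into 1648 higher and 3196 lower, in place of 2534 and 2116.

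In Col-0, rapamycin against mock called 0 of 48 genes by limma, against 0.185% of all loci in either direction. With the number 1 gene had an unadjusted p under 0.05, against 7.55% of all loci, the stalk gene AT2G40010 at a log2 change of 0.29, and without the number none had. The median log2 change was 0.04, and single genes ranged from -0.10 for AT5G02870 to 0.37 for RPSaB. The numbers did not share a direction. In number 1, 34 of 48 genes lay below mock with a median of -0.05, and in number 2 only 5 did, with a median of 0.12. RPL3A lay at -0.04 and -0.11 on the log2 scale in numbers 1 and 2, and the fitted change of RPS6A was -0.09.

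The difference of the rapamycin effects between RiD and Col-0 was tested as a term of the model. It passed in 44 of 48 genes, all more lowered in RiD, with a median of -0.87 on the log2 scale and 15.7% of all loci called in that direction. The medians within numbers were -0.76 and -0.97. RPL10C, AT5G27850, AT2G40010 and the S9-family gene AT5G39850 did not pass. Without the number 6 genes passed, against 3.56% of all loci. These were RPSaB, RPL5A, RPL5B, RPL23aA, RPL23aB and the L15-family gene AT4G16720. With rapamycin in both lines, RiD against Col-0, 46 of 48 genes were lower in RiD, with a median of 49.1% of Col-0 and 25.3% of all loci called lower. Without the number 30 were, against 11.8% of all loci. Scaling to the same total split the called loci into 5111 higher and 7562 lower, in place of 6314 and 5897, and for the difference between the lines into 3495 and 5220, in place of 4238 and 3655. RPL24A stood at 34.0%, RPS6A at 38.2% and RPL18 at 39.2% of Col-0 rapamycin, and RPL10C at 94.9%.

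**Figure D4:**
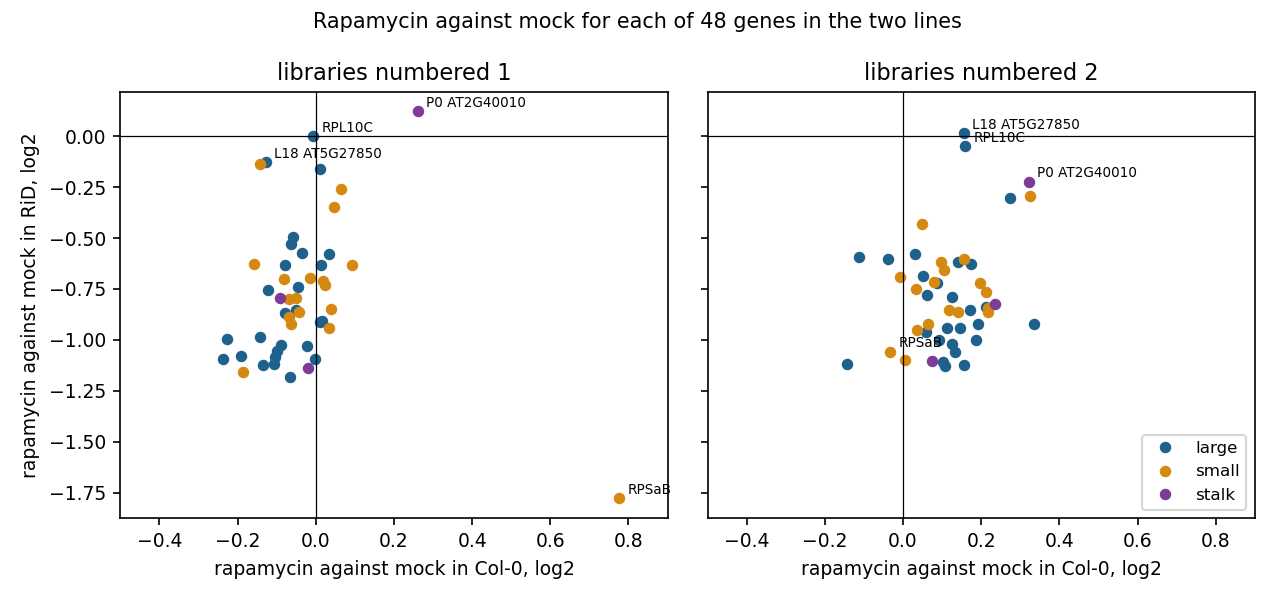
Log2 ratio of rapamycin to mock in RiD (vertical) against that in Col-0 (horizontal) for each of the 48 genes, with libraries numbered 1 on the left and 2 on the right. In Col-0 most genes lie just left of 0 in number 1 and just right of 0 in number 2, while in RiD nearly all lie below 0 in both. The panels share no libraries.

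Between the mock groups, RiD against Col-0 called 0 of 48 genes by limma, against 0.356% of all loci in either direction. The estimates still leaned one way, with 44 of 48 below Col-0, a median log2 difference of -0.19, and 17 genes at an unadjusted p under 0.05, against 11.5% of all loci. Within numbers 43 and 46 genes were lower in RiD, with medians of -0.10 and -0.27. RPL24A was lowest at -0.43, with an adjusted p of 0.188, and RPS6A stood at -0.35. No gene had an unadjusted p under 0.05 without the number. Without either of the Col-0 rapamycin libraries more of all loci were called, a few of the 48 genes among them.

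Other genes of the translation machinery were counted from lists written from general knowledge. Over all loci 24.1% were called lower with rapamycin in RiD, and 9.72% without the number. Of 155 tested other cytosolic ribosomal protein genes, 148 fell and 1 rose in RiD rapamycin against RiD mock, with a median log2 change of -0.79, and 57 fell without the number. The ubiquitin fusion gene of S27a AT1G23410 (-3.19) and RACK1C_AT (-1.63), a scaffold protein of the small subunit, fell most. Of 25 plastid ribosomal protein genes of the nucleus, 20 fell and 1 rose, with a median of -0.48, and 4 fell without the number. PSRP3/1 (-0.94) and PRPL11 (-0.78) changed most among them. Of 24 cytosolic translation factors, 16 fell and 1 rose, with a median of -0.28, and 1 fell without the number. ELF5A-3, a form of the elongation factor that eases peptide bonds at proline stretches, fell by 2.16 on the log2 scale, and AT5G12110, an elongation factor 1-beta, by 0.99. With brassinolide, against 12.8% of all loci called lower, 115 of the other cytosolic ribosomal protein genes fell and 1 rose, 12 translation factors fell and 1 plastid gene fell, and without the number 1, 0 and 0 did. The single plastid gene of 25 is a lower share than that of all loci.

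Many markers of meristems and dividing cells were lower with rapamycin in RiD. With brassinolide their sum lay below RiD mock in number 1 and above it in number 2. Of 16 such markers, 10 fell and 1 rose in RiD rapamycin against RiD mock, where 24.1% of all loci were called lower, with a median of -0.76 on the log2 scale, and 6 fell without the number. Their summed level was 2768 and 2358 normalized counts in RiD rapamycin, against 4134 and 3135 in RiD mock, 3858 and 3347 in RiD brassinolide and 3136 to 4227 in Col-0. PLT2, a regulator of the root stem cells, was at 0 in both RiD rapamycin libraries and at 10.3 and 34.4 in RiD mock, and PLT1 fell by 2.79 on the log2 scale. With brassinolide PLT2 held 1.32 and 0 and PLT1 held 0 and 6.18. WUS, which marks the organizing centre of the shoot meristem, was between 0 and 1.6 in every library. CDKB2;1, a mitotic kinase singled out after its values were seen, lay higher in RiD rapamycin, at 344 and 368 against 226 and 218 in RiD mock. With brassinolide 4 of these markers fell and 2 rose, where 2979 and 3445 of all 23285 loci were called lower and higher. CDKB2;1 reached 502 and 503 in RiD brassinolide. Of 7 markers of seedling tissues 2 fell with rapamycin and 2 rose, each a share near that of all loci. Of all 23285 loci, 5611 were called lower and 5604 higher. SHV2, a root hair gene (-3.42 on the log2 scale), and PORA (-1.27) fell, while CASP1, a gene of the Casparian strip (1.91), and KNAT1, a homeobox gene of the shoot (0.71), rose. The part of such cells in the ribosomal protein result was not tested.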

How the data were processed

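RNA of 10 libraries was sequenced from a stranded, polyA-selected kit, per the labels' protocols. The authors deposited normalized counts, a signal per transcript that need not be whole, and Salmon and DESeq2 are named without versions in the submitters' processing notes. The sources used here do not name the genome build, the annotation release or the use of strand by the counter.

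Transcripts were summed per locus. Loci that reached 1 normalized count in 2 or more libraries were kept (23285). limma 3.58.1 in R 4.3.3 was fitted to log2(value + 1), with robust moderation and a mean-variance trend, over all 5 groups with the replicate number as a term (4 residual degrees of freedom). Fold changes are on that scale, which understates changes of low genes, and p-values were adjusted by Benjamini-Hochberg over all loci. Pairing by number was set before the fit, but with the shift between the numbers in these same data already known. Deviations of same-numbered libraries from their group means correlated at r = 0.32 to 0.51 in all 10 pairs of groups. This does not show what the number stands for, and depth differed between the numbers as well. Summed and shared levels were divided by mean transcript length. Names, lengths, promoters and coding sequences came from RefSeq TAIR10.1. The named genes were those with the highest level, largest and smallest change in each subunit, both RPS6 genes, and the 2 families whose paralogue shares moved most and the 2 whose shares moved least between RiD rapamycin and RiD mock. Single values of 1 family are not reported here, though its genes enter all counts, sums and medians. The members and all lists were chosen with earlier results of these data known. Alternatives were the model without the number, pseudocounts, filters, scaling, moderation and leaving out each library. The fit was also run on simulated data in which all groups shared the same shift between numbers. That run cannot test the pairing, and no result here rests on it.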

Additional observations from a re-analysis of the deposited data

Results flagged for a closer look

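The rapamycin effect differed between the lines, by limma's test of the difference itself, in 44 of the 48 genes, all more lowered in RiD than in Col-0, against 15.7% of all loci. Without the number 6 genes passed, and of those named here RPSaB alone did, with limma adjusted p for the others from 0.0505 to 0.722. The call held under 12 of 19 alternatives for RPS18C and 8 of 19 for AT3G13580. Each value here is the log2 change in RiD minus that in Col-0. In the large subunit it was -0.51 for RPL3A, -1.05 for the L4-family gene AT5G02870 and -1.09 for RPL18. In the L7 family it was -1.05 for AT2G01250, -0.95 for AT2G44120 and -0.37 for AT3G13580. In the small subunit it was -1.04 for RPS6A, -0.75 for RPS6B, -0.77 for the S8-family gene AT5G20290 and -0.47 for RPS18C. In the S13 and SA pairs it was -0.94 for RPS13A, -0.90 for AT3G60770, -0.93 for RPSaA and -1.79 for RPSaB. The value of RPSaB, the lowest in level of the 48 genes, was uneven, with -2.56 in number 1 and -1.03 in number 2. The stalk gene AT3G09200 stood at -1.15.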

How the results depend on the processing

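Without the replicate block the calls among the 48 genes were 22 for RiD rapamycin against mock, 1 for RiD brassinolide against mock, 0 for rapamycin against brassinolide, 30 for rapamycin in RiD against Col-0 and 6 for the difference between the lines. Without trend and robust moderation they were 17 for brassinolide against mock and 4 for rapamycin against brassinolide. Calls over all loci fell as well, to 1733 and 1238 of 23285 lower. With 1 library left out the counts ranged from 40 to 45 for RiD rapamycin against mock, 18 to 45 for brassinolide against mock, 7 to 33 for rapamycin against brassinolide, 44 to 47 for RiD against Col-0 with rapamycin, 39 to 44 for the difference and 0 to 3 for RiD mock against Col-0 mock. In normalized counts in place of counts per kilobase, the ratio of large to small subunit sums was 1.41 in Col-0 mock, 1.38 in Col-0 rapamycin, 1.39 in RiD mock and 1.42 in RiD rapamycin and RiD brassinolide. The share of RPSaA moved by -0.0739 to 0.35 points and that of AT3G60770 by -2.85 to 3.02 with 1 library left out. Log2 estimates of RiD rapamycin against mock took both signs with 1 library left out, from -0.0595 to 0.0092 for RPL10C, from -0.24 to 0.14 for the P0 gene AT2G40010 and from -0.151 to 0.0362 for the L18-family gene AT5G27850. They were above 0 without RiD rapamycin library 2 for RPL10C and AT2G40010 and without RiD mock library 1 for AT5G27850. The difference between the lines for AT5G27850 ranged from -0.207 to 0.0643 and was above 0 without Col-0 rapamycin library 2 or RiD mock library 1 (0.02). None of these was called. The cause of these moves was not tested.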
